A study of Mus musculus with 96 samples.

Results

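The 10 genes described here, Slc1a2, Slc1a3, Glul, Aqp4, Kcnj10, Gja1, Gjb6, Aldh1l1, Fgfr3 and Sox9, are genes of astrocyte homeostasis and glutamate uptake. They were taken by symbol from the 32594 genes counted in bulk RNA-seq libraries of mouse brain, and each symbol was found once. All 10 passed the filter on low counts in every comparison made. The lowest count of any of them in a single library was 193 and the highest was 105698.

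The study asked how a cortical contusion and the drug candesartan, a blocker of the angiotensin II type 1 receptor, alter gene expression in the hippocampus, thalamus and hypothalamus on the injured side. The mice were adult C57BL/6 males and were killed on day 3 or day 29 after the procedure (dpi, days post-injury). There were 96 libraries in 24 groups of 4, and each region and time point was a set of 16 libraries. The groups of a set were Sham + VH (sham procedure and vehicle), TBI + VH (controlled cortical impact and vehicle), Sham + CD (sham procedure and candesartan) and TBI + CD (controlled cortical impact and candesartan). Vehicle was saline with sodium carbonate, and every mouse, sham or injured, had a first intraperitoneal injection of drug or vehicle at 6 h. Mice of the 3 dpi cohort had further injections at 24 and 48 h, whereas mice of the 29 dpi cohort had an osmotic pump put in at 24 h. Sham mice had the anesthesia and the scalp incision but no craniectomy, so impact and craniectomy cannot be told apart. The RNA samples of the highest quality in each group were the ones sequenced.

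Astrocytes clear glutamate from the synapse through the transporters encoded by Slc1a2 (GLT-1) and Slc1a3 (GLAST), and glutamine synthetase, the product of Glul, turns it into glutamine that neurons use again. The potassium channel Kir4.1 (Kcnj10) and the water channel aquaporin-4 (Aqp4) sit on astrocyte endfeet around vessels and buffer potassium and water, while connexin 43 (Gja1) and connexin 30 (Gjb6) join astrocytes into a coupled network. Aldh1l1 encodes a folate enzyme widely used as a pan-astrocyte marker, Fgfr3 a fibroblast growth factor receptor, and Sox9 a transcription factor needed for astrocyte specification.

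Library totals ran from 6663629 to 38589791 counts. Both libraries under 10000000 counts were sham libraries of the 29 dpi hippocampus. Levels are given as CPM, counts scaled to the effective size of each library, with scaling factors shared by all 96 libraries. Markers of each region were highest in the libraries with its label: in Sham + VH mice at 3 dpi the mean log2 CPM of 5 hippocampal genes was 5.69 to 6.14 in hippocampus, 1.5 to 2.43 in thalamus and 2.10 to 2.41 in hypothalamus. One thalamic Sham + VH library at 29 dpi reached 4.69 on that score. Choroid plexus genes varied strongly among hippocampal libraries. At 3 dpi the mean log2 CPM of 10 choroid plexus genes was 1.73 to 6.10 in vehicle-treated sham libraries and -0.95 to 1.20 in vehicle-treated injured ones, with 0.00017 to 0.83 and -0.94 to 5.14 in the sham and injured libraries of the candesartan arm. Ttr, the most abundant of them, ranged from 164 to 6488 CPM in Sham + VH libraries and from 4.48 to 137 CPM in TBI + VH libraries. In the vehicle arm the sham and injured ranges of this score did not overlap, with sham higher. In the candesartan arm they overlapped, and the highest values were in injured libraries. Over both drug arms pooled 0 of the 10 choroid plexus genes passed the test for injury, which does not describe the vehicle arm alone. The paper lists Ttr among the genes lower only in TBI + VH.

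At 3 dpi 7 of the 10 genes rose in the injured hippocampus, in vehicle mice and again in candesartan mice, and none fell. A call needed an adjusted p under 0.05 in edgeR's quasi-likelihood test over all genes and an absolute log2 fold change above 0.32. The genes called higher were Slc1a3, Aqp4, Kcnj10, Gja1, Gjb6, Aldh1l1 and Sox9, and the 3 that were not called were Slc1a2, Glul and Fgfr3. For comparison, 8.99% of the 16756 genes tested were called higher in vehicle mice, 14.4% in candesartan mice and 13.3% over both drug arms. With the choroid plexus score as a covariate, 583 genes were called higher and 16 lower in vehicle mice, instead of 1507 and 289, and 5 of the 10 genes were called, without Slc1a3 and Sox9. Those 5 kept their calls in vehicle mice over all 7 alternatives, by edgeR or DESeq2. Their largest adjusted p among these was 0.0063 for Aldh1l1, 0.0091 for Aqp4, 0.012 for Gja1 and 0.030 for Gjb6. For Kcnj10 it was 0.04997, just under the limit. The median log2 fold change of the 10 genes over both arms was 0.55, against -0.02 for all genes tested. In bulk tissue a change in the number of astrocytes and a change in RNA per astrocyte cannot be told apart. For 6 of the 10, all except Sox9 among those called, the 8 injured libraries all lay above the 8 sham libraries, which held for 7.42% of genes. The p-values set each difference against the spread between these samples only.

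**Figure D1:**
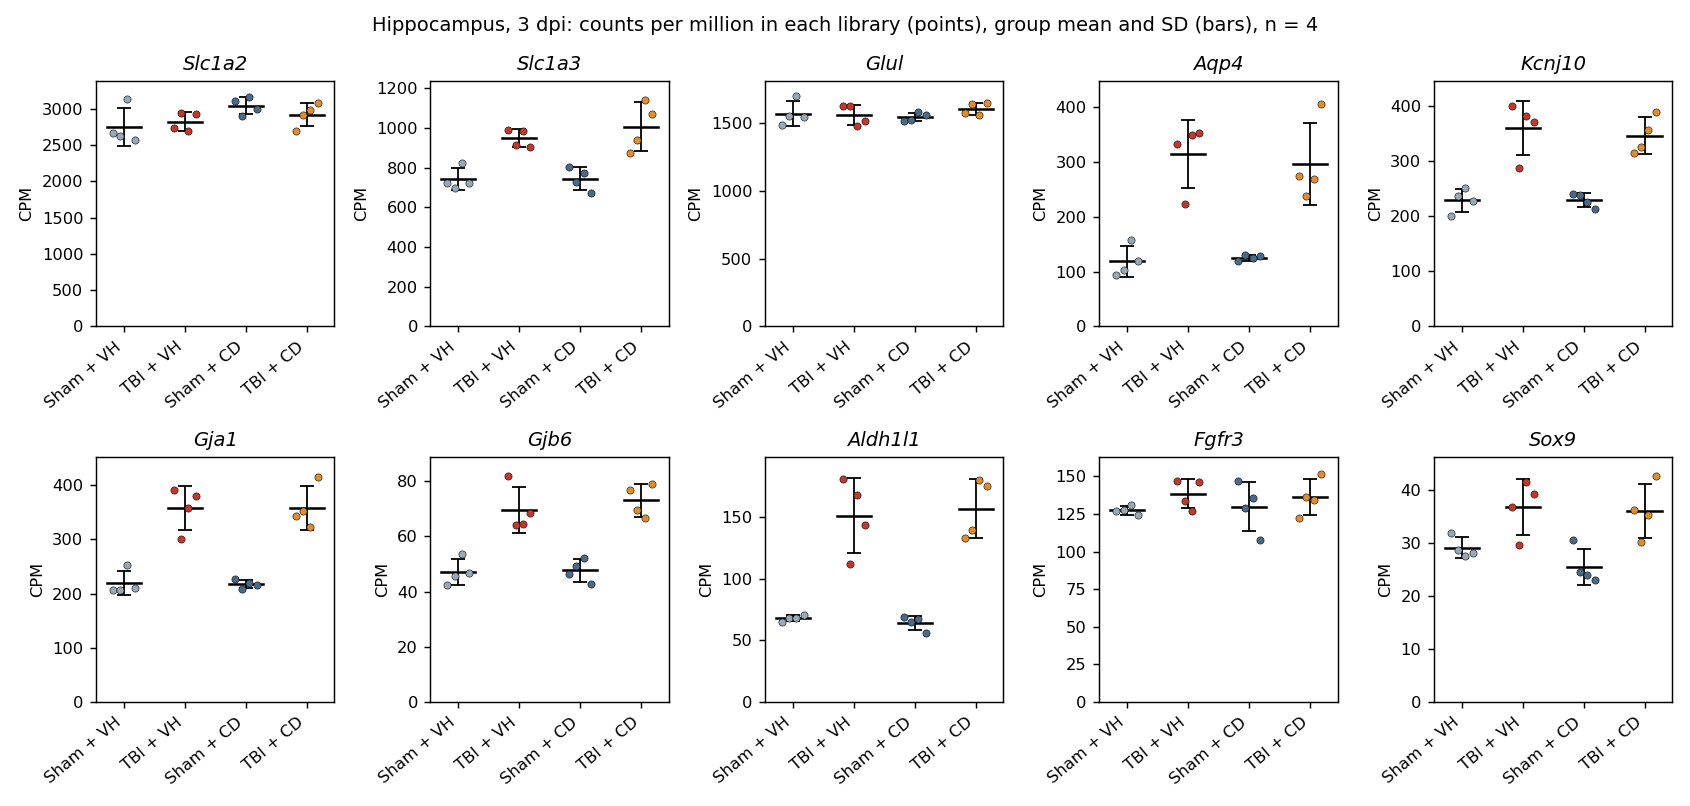
Levels in CPM of the 10 genes in each hippocampal library at 3 dpi, by group (Sham + VH, TBI + VH, Sham + CD, TBI + CD), with points for libraries and bars for the mean and SD of 4. For Slc1a3, Aqp4, Kcnj10, Gja1, Gjb6 and Aldh1l1 the injured libraries all lie above the sham libraries, whereas for Slc1a2, Glul and Fgfr3 the groups overlap.

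Of the glutamate transporters Slc1a3 rose and Slc1a2 was not called. Slc1a2 (chr2:102658659-102790784, plus strand, GRCm38) was at 2667, 2628, 3144 and 2569.7 CPM in the Sham + VH hippocampus at 3 dpi and at 2732, 2944, 2700.2 and 2932 CPM in TBI + VH. With candesartan it was at 3116, 2902, 3159 and 2999 CPM in sham mice and at 2699, 2919.5, 2988 and 3084 CPM in injured mice. The 4 groups overlapped, and replicate 3 of Sham + VH, at 3144 CPM, stood above the other 3 of its group. The log2 fold change for injury was 0.07 ± 0.07 (SE, adjusted p = 0.56) in vehicle mice and -0.01 ± 0.07 (SE, adjusted p = 0.90) in candesartan mice. Over both arms its 95% interval was -0.06 to 0.12, which lies inside the limits used for a call. The antisense gene Gm13872 overlaps Slc1a2.

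Slc1a3 (chr15:8634124-8710764, minus strand), the second transporter, gave 723, 697, 825 and 723 CPM in Sham + VH libraries and 988, 911, 986 and 905 CPM in TBI + VH. In the candesartan arm it gave 804, 727, 774 and 673 CPM in sham and 871, 940.5, 1142 and 1071 CPM in injured mice. Every injured library lay above every sham library. It rose by a log2 fold change of 0.39 ± 0.09 (SE, adjusted p = 0.0045) in vehicle mice and 0.48 ± 0.09 (SE, adjusted p = 3.8e-04) in candesartan mice, or 1.35-fold over both arms. With the choroid plexus score as a covariate the value in vehicle mice was 0.16 (adjusted p = 0.52, edgeR quasi-likelihood) and was not called.

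Glul (chr1:153899944-153909723, plus strand), for glutamine synthetase, ranged over 1489.8 to 1699.6 (median 1551) CPM in the 8 sham libraries and 1482 to 1648 (median 1603) CPM in the 8 injured ones. These ranges overlapped. The log2 fold change was 0.02 ± 0.05 (SE, adjusted p = 0.83) in vehicle mice and 0.10 ± 0.05 (SE, adjusted p = 0.15) in candesartan mice, and the interval over both arms was -0.01 to 0.13. Teddm2, a protein-coding gene, overlaps Glul on the opposite strand, and how the authors' counting used strand is not given in the sources used here.

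The start-site windows are shown for Slc1a3, which rose, and Glul, which was not called, as well as for Gja1 and Aldh1l1, which also rose. Each runs from 250 bases before to 50 bases after the RefSeq start site, on the gene's own strand, 5′ to 3′ (GRCm38.p6). Windows were matched for 8 of the 10 genes. Capitals mark a match to the STAT-type motif TTCNNNGAA or the AP-1-type motif TGANTCA, searched on both strands. The windows are Slc1a3 at chr15:8710758-8711057 (minus strand), Glul at chr1:153899679-153899978 (plus), Gja1 at chr10:56377050-56377349 (plus) and Aldh1l1 at chr6:90550543-90550842 (plus), which lies inside the longer span that GENCODE gives for this gene.
Slc1a3: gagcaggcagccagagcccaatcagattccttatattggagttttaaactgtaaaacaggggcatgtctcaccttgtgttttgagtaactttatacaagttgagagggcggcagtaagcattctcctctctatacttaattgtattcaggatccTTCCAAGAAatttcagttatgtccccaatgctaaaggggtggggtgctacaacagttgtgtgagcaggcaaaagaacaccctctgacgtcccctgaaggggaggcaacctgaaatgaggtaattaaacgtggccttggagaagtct
Glul: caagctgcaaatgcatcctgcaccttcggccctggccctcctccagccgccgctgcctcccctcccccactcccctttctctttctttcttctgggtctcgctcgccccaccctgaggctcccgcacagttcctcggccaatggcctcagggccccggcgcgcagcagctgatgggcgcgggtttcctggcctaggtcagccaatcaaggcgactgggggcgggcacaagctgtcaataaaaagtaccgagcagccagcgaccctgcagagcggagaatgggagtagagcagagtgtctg
Gja1: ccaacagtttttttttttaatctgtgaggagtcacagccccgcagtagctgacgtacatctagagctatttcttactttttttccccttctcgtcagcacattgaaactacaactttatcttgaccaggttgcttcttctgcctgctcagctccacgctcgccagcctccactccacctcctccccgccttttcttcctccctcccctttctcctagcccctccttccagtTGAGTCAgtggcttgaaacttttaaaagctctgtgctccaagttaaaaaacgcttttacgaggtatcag
Aldh1l1: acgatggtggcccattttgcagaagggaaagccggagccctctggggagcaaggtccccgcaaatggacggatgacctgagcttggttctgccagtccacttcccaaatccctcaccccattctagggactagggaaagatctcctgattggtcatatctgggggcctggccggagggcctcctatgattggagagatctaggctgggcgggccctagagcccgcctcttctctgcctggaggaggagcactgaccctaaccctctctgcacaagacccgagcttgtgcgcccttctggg

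The Slc1a3 window held 1 match to TTCNNNGAA, starting at position -96 from the start site, and the Gja1 window held 1 match to TGANTCA, starting at -19. No other matched window of the 8 genes held either motif, and none held the SOX-type motif ACAATNG. Among all 32851 windows of the same length 8.3% held TTCNNNGAA, 7.81% TGANTCA and 8.09% ACAATNG. The windows also differed in base composition. GC content was 45.3% for Slc1a3, 47.7% for Gja1, 60.0% for Aldh1l1 and 64.3% for Glul, against a median of 52.7% over all windows. The Slc1a3 window had 3 CpG and the Glul window 17, with a median of 7 over all windows.

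Among the channel genes, Aqp4 showed the largest change of the 10 over both arms. Its levels were 94.1, 103, 157 and 119 CPM in Sham + VH libraries and 333, 223, 349 and 352 CPM in TBI + VH. In candesartan mice they were 119, 131, 124 and 128 CPM after sham and 275, 238, 268 and 406 CPM after injury. The groups did not overlap, although replicate 2 of TBI + VH was well below the other 3. Aqp4 rose by 1.45 ± 0.18 (SE, adjusted p = 2.2e-05) on the log2 scale in vehicle mice and by 1.29 ± 0.18 (SE, adjusted p = 4.2e-05) in candesartan mice, which is 2.58-fold over both arms. Leaving out each library in turn gave 1.35 to 1.61 for the value in vehicle mice.

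Kcnj10 (chr1:172341210-172374085, plus strand), for Kir4.1, was at 200.5, 236, 251 and 228 CPM in Sham + VH libraries and at 399.6, 288, 383 and 371 CPM in TBI + VH. The candesartan arm gave 241, 238, 226 and 213 CPM in sham and 315, 326, 356 and 389 CPM in injured mice. Again every injured library exceeded every sham library. Kcnj10 rose by 0.69 ± 0.10 (SE, adjusted p = 9.4e-05) in vehicle mice and 0.64 ± 0.10 (SE, adjusted p = 1.2e-04) in candesartan mice on the log2 scale, or 1.59-fold over both arms.

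Both connexin genes rose in both arms. Gja1 (chr10:56377330-56402513, plus strand) was at 206, 207, 253 and 211 CPM in Sham + VH libraries and 391, 302, 359 and 380.3 CPM in TBI + VH, with 227, 208, 220.0 and 216 CPM and 344, 352, 322 and 416 CPM in the sham and injured candesartan mice. The sham libraries ended at 253 CPM, reached by replicate 3 of Sham + VH alone, and the injured ones began at 302 CPM. The log2 fold change was 0.74 ± 0.09 (SE, adjusted p = 2.4e-05) in vehicle mice and 0.76 ± 0.09 (SE, adjusted p = 1.1e-05) in candesartan mice. Gjb6 (chr14:57123303-57133611, minus strand), the less abundant connexin, was at 42.5, 45.7, 53.6 and 46.8 CPM in Sham + VH libraries and 81.9, 64.0, 64.6 and 68.4 CPM in TBI + VH. In the candesartan arm its values were 46.4, 49.4, 52.4 and 42.7 CPM in sham and 76.7, 69.7, 66.7 and 79.2 CPM in injured mice. These groups did not overlap either. Gjb6 rose by 0.60 ± 0.09 (SE, adjusted p = 1.7e-04) and 0.66 ± 0.09 (SE, adjusted p = 3.9e-05) on the log2 scale in the vehicle and candesartan arms.

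Aldh1l1 (chr6:90486427-90600203, plus strand) had the smallest adjusted p of the 10. It was at 65.3, 68.5, 68.0 and 70.8 CPM in Sham + VH libraries and at 181, 112, 168 and 143 CPM in TBI + VH. The candesartan arm had 68.7, 64.6, 67.4 and 56.2 CPM in sham and 133, 139, 180.2 and 176 CPM in injured mice. Sham libraries were tightly grouped, injured ones were spread more widely, and the groups were well apart. Aldh1l1 rose by 1.18 ± 0.13 (SE, adjusted p = 7.3e-06) in vehicle mice and 1.34 ± 0.13 (SE, adjusted p = 1.3e-06) in candesartan mice on the log2 scale, or 2.40-fold over both arms. Other annotated genes overlap Aldh1l1 on both strands (Gm45901 and Gm44236 on its own, Gm15756 on the opposite), so its counts may hold some of their reads.

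Sox9 (chr11:112782224-112787760, plus strand), the only transcription factor among the 10, had the largest adjusted p of the 7 called genes in each arm. Its values in vehicle mice were 31.97, 28.7, 27.6 and 28.2 CPM after sham and 36.8, 29.6, 41.5 and 39.3 CPM after injury. In candesartan mice they were 30.6, 24.5, 24.0 and 23.1 CPM and 36.3, 30.3, 35.2 and 42.7 CPM. Replicate 2 of TBI + VH and replicate 2 of TBI + CD fell within the sham range. The log2 fold change was 0.38 ± 0.12 (SE, adjusted p = 0.045) in vehicle mice, which was lost when 9 of the 16 libraries were left out singly (adjusted p up to 0.14) and with the choroid plexus score as a covariate (0.43, adjusted p = 0.25). In candesartan mice it was 0.55 ± 0.12 (SE, adjusted p = 0.0021).

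Fgfr3 (chr5:33721674-33737068, plus strand) ranged over 108 to 147 (median 128) CPM in sham libraries and 122 to 152 (median 135) CPM in injured ones, and the ranges overlapped. The receptor gene's log2 fold change was 0.15 ± 0.08 (SE, adjusted p = 0.26) in vehicle mice and 0.12 ± 0.08 (SE, adjusted p = 0.31) in candesartan mice. Over both arms its interval was 0.02 to 0.25.

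Other cell type markers moved in the same hippocampal libraries at 3 dpi. All 10 microglia and macrophage genes rose over both arms, with a median log2 fold change of 1.89. Csf1r, the receptor for colony-stimulating factor 1, went from 111 ± 3.64 CPM in Sham + VH libraries to 278 ± 43.3 CPM in TBI + VH (SD, n = 4). The 6 genes of dividing cells also all rose, with a median of 3.40. Of the 10 neuronal genes 0 were called and their median was -0.19; Snap25, a synaptic vesicle fusion protein, was at 2201 ± 127 CPM in Sham + VH libraries and 1852 ± 138 CPM in TBI + VH. The part of these shifts in the values of the 10 genes was not tested. As a share of all counts the 10 genes took 0.55% ± 0.04 after sham and 0.66% ± 0.02 after injury in vehicle mice, and 0.57% ± 0.02 and 0.68% ± 0.05 in candesartan mice (SD, n = 4).

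In the thalamus at 3 dpi 0 of the 10 genes were called over both arms, where 0.907% of 16762 genes were called higher. Aldh1l1, at 77.5 to 96.5 (median 89.6) CPM in sham and 89.4 to 117 (median 104) CPM in injured libraries, had a log2 fold change of 0.25 ± 0.05 (SE, adjusted p = 0.022), under the fold limit. Gja1 was at 237 to 284 (median 261) CPM in sham and 276 to 333 (median 309.8) CPM in injured libraries, with 0.25 ± 0.05 (SE, adjusted p = 0.03). Both genes passed on adjusted p alone, and their groups overlapped over both arms. Within the candesartan arm the 4 injured libraries all lay above the 4 sham libraries for Gja1, Gjb6, Aldh1l1 and Fgfr3, which held for 2.62% of genes, and within the vehicle arm for 0 of the 10, against 1.52% of genes. With the choroid plexus score as a covariate Aldh1l1 was called, at 0.32. The unadjusted p was under 0.05 for 5 of the 10 genes and for 1080 of all 16762. In the same libraries 9 of 10 microglia and macrophage genes rose.

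In the hypothalamus at 3 dpi none of the 10 genes was called over both arms by edgeR or DESeq2, where edgeR called 0.0177% of 16946 genes higher and DESeq2 16 of 17486, and 3 of the 10, with 1242 of all genes, had an unadjusted p under 0.05. Aqp4 had the largest value, 0.25 ± 0.06 (SE, adjusted p = 0.50), from 110.3 to 143 (median 122) CPM in sham to 118 to 172 (median 147) CPM in injured libraries. Within the vehicle arm its 4 injured libraries lay above the 4 sham libraries, as for 0.891% of genes. Within the candesartan arm this held for 0 of the 10 genes, Aqp4 included, against 1.65% of genes. Sox9 was the most variable there, with 17.4 to 33.0 (median 25.5) CPM in sham and 21.2 to 30.7 (median 29.3) CPM in injured libraries.

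**Figure D2:**
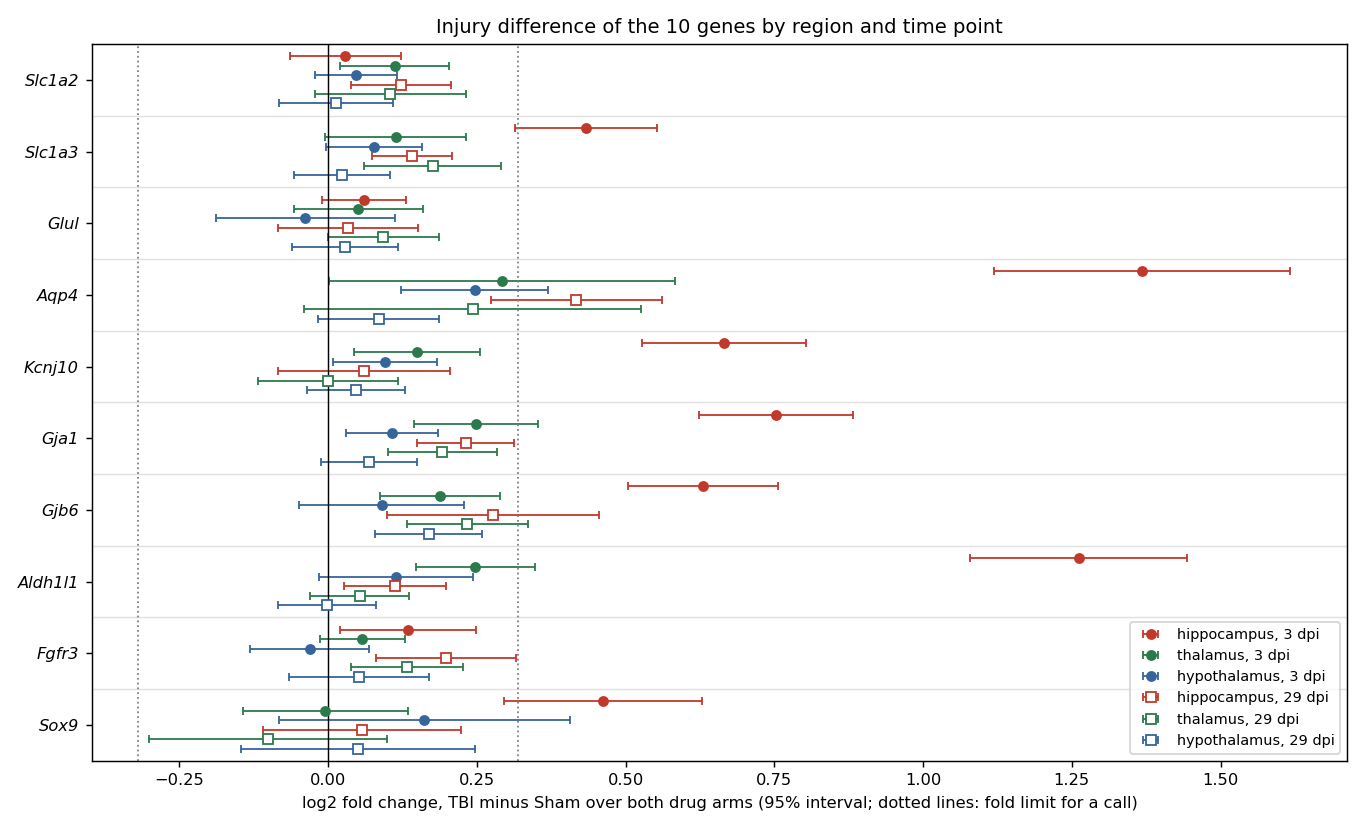
Log2 fold change for injury over both drug arms of each gene, by region and time point, with 95% intervals; filled circles are 3 dpi, open squares 29 dpi, and dotted lines mark the fold limit of 0.32. The hippocampus at 3 dpi stands to the right for 7 genes (Aqp4 at 1.37, Aldh1l1 at 1.26), whereas Slc1a2, Glul and Fgfr3 have all 6 estimates inside those lines.

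The difference between regions was tested directly in one model of all 48 libraries at 3 dpi. Regions were dissected from the same brains, but which libraries share a mouse is not given. The model therefore treats the libraries as independent. The injury change was greater in hippocampus than in thalamus for 6 of the 10 genes, where 8.59% of 17788 genes were called higher. The differences, on the log2 scale over both drug arms, were 1.04 ± 0.18 (SE, adjusted p = 3.6e-05) for Aqp4 and 0.98 ± 0.11 (SE, adjusted p = 5.1e-09) for Aldh1l1. Kcnj10 differed by 0.48 ± 0.08 (SE, adjusted p = 3.0e-05) and Gja1 by 0.47 ± 0.08 (SE, adjusted p = 1.5e-05). Gjb6 (0.41 ± 0.09, adjusted p = 0.0015) and Sox9 (0.43 ± 0.14, adjusted p = 0.026) completed the list, while Slc1a3, at 0.29 ± 0.08 (SE, adjusted p = 0.0073), stayed below the fold limit.

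Against the hypothalamus 6 of the 10 genes also had a greater change in hippocampus, where 9.51% of genes were called higher. Here Slc1a3 passed, at 0.33 ± 0.08 (SE, adjusted p = 0.0016), and Sox9 did not, at 0.28 ± 0.14 (SE, adjusted p = 0.17). Aldh1l1 gave 1.13 ± 0.11 (SE, adjusted p = 9.8e-11), Aqp4 1.10 ± 0.18 (SE, adjusted p = 1.2e-05) and Gja1 0.62 ± 0.08 (SE, adjusted p = 4.9e-08). The call of Slc1a3 was lost, with values from 0.30, without hippocampal replicate 4 of Sham + CD or 3 of TBI + CD, or hypothalamic replicate 3 of Sham + VH or of Sham + CD. For Slc1a2, Glul and Fgfr3 neither regional difference was called, and the intervals against the thalamus were -0.23 to 0.01, -0.19 to 0.15 and -0.10 to 0.19.

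In the hippocampus at 29 dpi 1 of the 10 genes, Aqp4, rose over both drug arms, where 1.59% of 16832 genes were called higher. All 10 values were above 0, and 7 of the 10 genes had an unadjusted p under 0.05, against 1848 of all genes. In vehicle mice it was at 160.1, 147, 156 and 171 CPM after sham and 205, 178, 273 and 192 CPM after injury. The candesartan arm had 156, 155, 140.5 and 142 CPM after sham and 188, 205, 214 and 173 CPM after injury. All 8 injured libraries lay above all 8 sham libraries, which held for 0.558% of genes, although the lowest injured library did so by a small margin. The log2 fold change was 0.42 ± 0.07 (SE, adjusted p = 0.0048), or 1.34-fold. Within single arms the values were 0.42 ± 0.10 (SE, adjusted p = 0.10) in vehicle mice and 0.41 ± 0.10 (SE, adjusted p = 0.12) in candesartan mice, neither of them called by edgeR with all 16 libraries and both of them called by DESeq2. By edgeR Aqp4 was called in candesartan mice with only the groups compared fitted (adjusted p = 0.018) or without replicate 3 of TBI + VH (0.0082), and in vehicle mice without replicate 2 of TBI + VH (0.039). Without replicate 3 of TBI + VH the value in vehicle mice was 0.28 (adjusted p = 0.16). In these arms 0.523% and 0.351% of genes were called higher by edgeR with all 16 libraries. These shares do not apply to the calls by DESeq2, by the fit of only the groups compared or without a library. Within the vehicle arm all injured libraries lay above sham for Slc1a3, Aqp4 and Gja1, which held for 2.44% of genes, and within the candesartan arm for Aqp4, Gja1, Gjb6 and Aldh1l1, which held for 4.29%.

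Gja1 was at 211 to 251 (median 232) CPM in sham and 246 to 297 (median 275) CPM in injured hippocampus at 29 dpi, with a log2 fold change of 0.23 ± 0.04 (SE, adjusted p = 0.0058). Slc1a3 gave 0.14 ± 0.03 (SE, adjusted p = 0.041). Both passed on adjusted p but lay under the fold limit. Gjb6 was at 0.28 ± 0.09 (adjusted p = 0.17) and was called in the candesartan arm when only the 2 groups compared were fitted. Aldh1l1, at 52.8 to 64.5 (median 60.1) CPM in sham and 60.3 to 70.5 (median 62.8) CPM in injured libraries, had 0.11 ± 0.04 (SE, adjusted p = 0.29), and Kcnj10 had 0.06 ± 0.07 (SE, adjusted p = 0.87). Gfap, the intermediate filament gene of reactive astrocytes, was still at 1.15 ± 0.16 at 29 dpi, from 3.63 ± 0.13 at 3 dpi (log2 fold change ± SE).

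**Figure D3:**
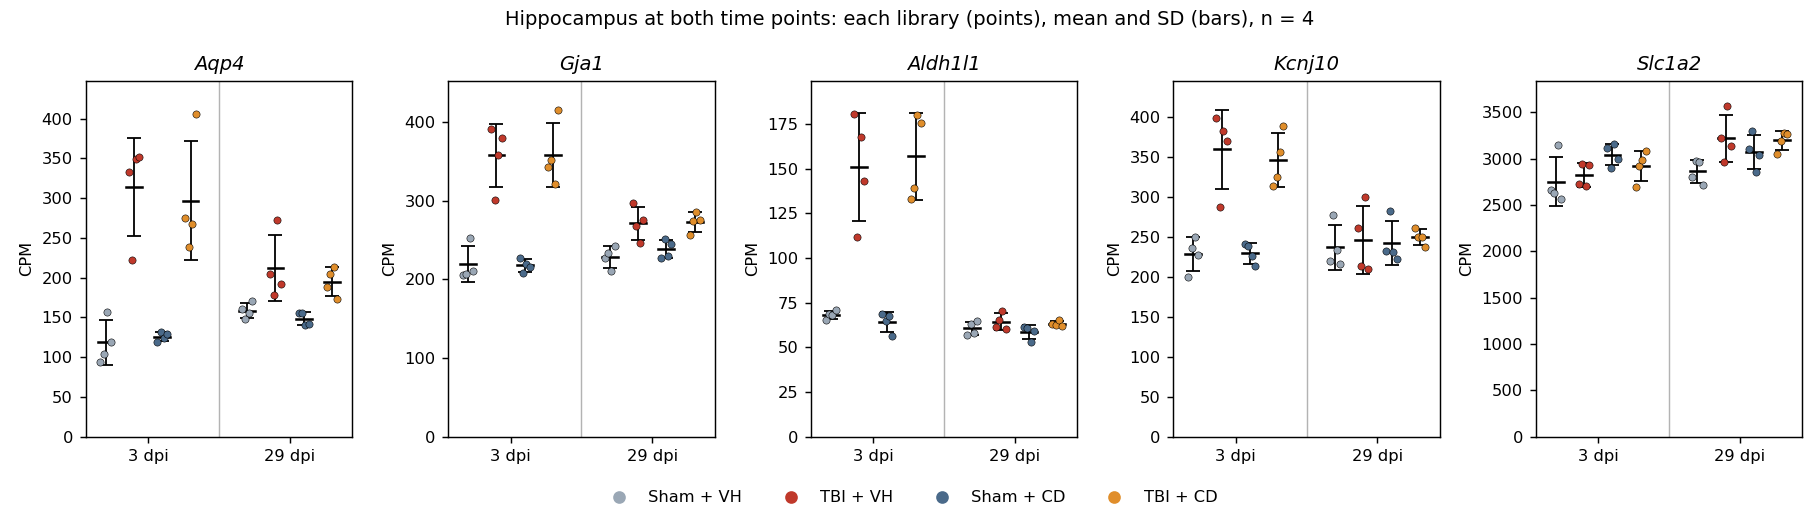
Levels in CPM of Aqp4, Gja1, Aldh1l1, Kcnj10 and Slc1a2 in each hippocampal library at 3 and 29 dpi, by group, with bars for the mean and SD of 4. Injured libraries of the first 4 genes stand above sham at 3 dpi. At 29 dpi those of Aqp4 still do, by less, those of Gja1, Aldh1l1 and Kcnj10 overlap sham once both arms are pooled, and the sham and injured libraries of Slc1a2 overlap at both times.

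In a model of the 32 hippocampal libraries the injury change was greater at 3 dpi than at 29 dpi for 6 of the 10 genes, where 7.92% of 17181 genes were called higher. The time points were separate cohorts, with repeated injections at 3 dpi and a pump at 29 dpi. Time after injury therefore cannot be told apart from cohort and delivery. The differences were 1.16 ± 0.11 (SE, adjusted p = 6.4e-09) for Aldh1l1, 0.96 ± 0.15 (SE, adjusted p = 3.9e-05) for Aqp4, 0.62 ± 0.11 (SE, adjusted p = 9.9e-05) for Kcnj10 and 0.53 ± 0.08 (SE, adjusted p = 1.4e-05) for Gja1. Those of Gjb6 (0.36 ± 0.12, adjusted p = 0.04) and Sox9 (0.42 ± 0.12, adjusted p = 0.024) were near the threshold. With each of the 32 libraries left out in turn the call of Gjb6 held in 13 fits and that of Sox9 in 26. Slc1a3 gave 0.30 ± 0.07 (SE, adjusted p = 0.0029), under the fold limit, and was called without replicate 3 of Sham + VH (0.33) or replicate 1 of Sham + CD (0.32) at 3 dpi. Slc1a2, Glul and Fgfr3 were not called.

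In the thalamus and hypothalamus at 29 dpi 0 of the 10 genes were called for injury by edgeR or DESeq2, in either arm or over both. By edgeR 0.0% of all genes were called higher in each of these comparisons, except 0.00583% in the hypothalamus of vehicle mice and over both arms. DESeq2 called 0 genes higher in the thalamus of vehicle mice, 10 in candesartan mice and 11 over both arms, and 2, 1 and 4 in hypothalamus. An unadjusted p under 0.05 was reached by 4 of the 10 in thalamus, against 1145 of 16957 genes, and by 1 in hypothalamus, against 505 of 17165. The widest spread was that of Aqp4 in the thalamus of TBI + CD mice, at 197, 221, 236 and 452 CPM, against 210.2, 152, 197 and 212 CPM in Sham + CD. Replicate 4 stood far above the other 3. Gjb6 had 0.23 ± 0.05 (SE, adjusted p = 0.31) in thalamus and 0.17 ± 0.05 (SE, adjusted p = 0.9999) in hypothalamus.

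None of the 10 genes was called for candesartan in any region at either time, in sham or in injured mice, by edgeR or DESeq2. The background was low as well: 1.5% of genes were called in either direction in the sham hippocampus at 3 dpi, and 0.0% by edgeR in each other candesartan comparison. That share came from 14 genes higher and 237 lower, with 35 and 413 by DESeq2 and 0 and 0 by edgeR with the choroid plexus score as a covariate. In the sham hippocampus at 3 dpi the largest values were -0.20 ± 0.12 (SE, adjusted p = 0.46) for Sox9 and 0.14 ± 0.07 (SE, adjusted p = 0.36) for Slc1a2, with 0 of the 10 at an unadjusted p under 0.05. In injured hippocampus at 3 dpi the values of all 10 lay between -0.08 and 0.09, and the 95% interval was -0.42 to 0.26 for Aqp4, -0.19 to 0.31 for Aldh1l1 and -0.08 to 0.18 for Slc1a2. Intervals of this width do not show that the drug had no effect.

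The unadjusted p was under 0.05 for 1 or 2 of the 10 genes in 4 of the 12 candesartan comparisons, against 1152 of 16762 genes in sham thalamus and 344 in injured thalamus at 3 dpi, 353 of 16946 in injured hypothalamus at 3 dpi and 2269 of 17165 in sham hypothalamus at 29 dpi. Slc1a3 in the sham thalamus at 3 dpi was at 543, 556, 569 and 619 CPM with vehicle and 465, 482, 455 and 514 CPM with candesartan. These groups did not overlap, as for 2.14% of genes with candesartan lower, but the log2 fold change was -0.25 ± 0.09 (SE, adjusted p = 0.61). In the sham hypothalamus at 29 dpi Glul was at 1109, 1110.1, 968 and 1084 CPM with vehicle and 1118, 1276, 1233 and 1214 CPM with candesartan, with 0.17 ± 0.06 (SE, adjusted p = 0.36). The interaction of injury and candesartan was called for 0 of the 10 genes in all 6 sets by edgeR and DESeq2, with 0 at an unadjusted p under 0.05 and 0.0% of all genes called by edgeR. Its largest value was that of Aqp4 in thalamus at 29 dpi, 0.56 ± 0.29 (SE, adjusted p = 0.999159), in the set with the high replicate 4 of TBI + CD.

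Several of the 10 genes differed between regions of uninjured, vehicle-treated mice. At 3 dpi, 7 of 10 differed between hippocampus and thalamus (39.5% of 16959 genes called in either direction), 5 between hippocampus and hypothalamus (46.1%) and 3 between thalamus and hypothalamus (26.6%). At 29 dpi these counts were 7 (39.8% of 17033 genes), 5 (45.6%) and 4 (32.8%). Apart from the hippocampus against thalamus, the shares of the 10 genes were near those of all genes. Which regions came from the same mouse is not given, so the test treats the libraries as independent. The thalamic Sham + VH library with a high hippocampal score is part of the thalamic group at 29 dpi. With single libraries left out, the hippocampus minus thalamus difference at 29 dpi was 0.80 to 0.89 for Slc1a2 and -1.72 to -1.60 for Kcnj10. It was -0.50 to -0.37 for Aqp4 and -0.40 to -0.34 for Aldh1l1.

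**Figure D4:**
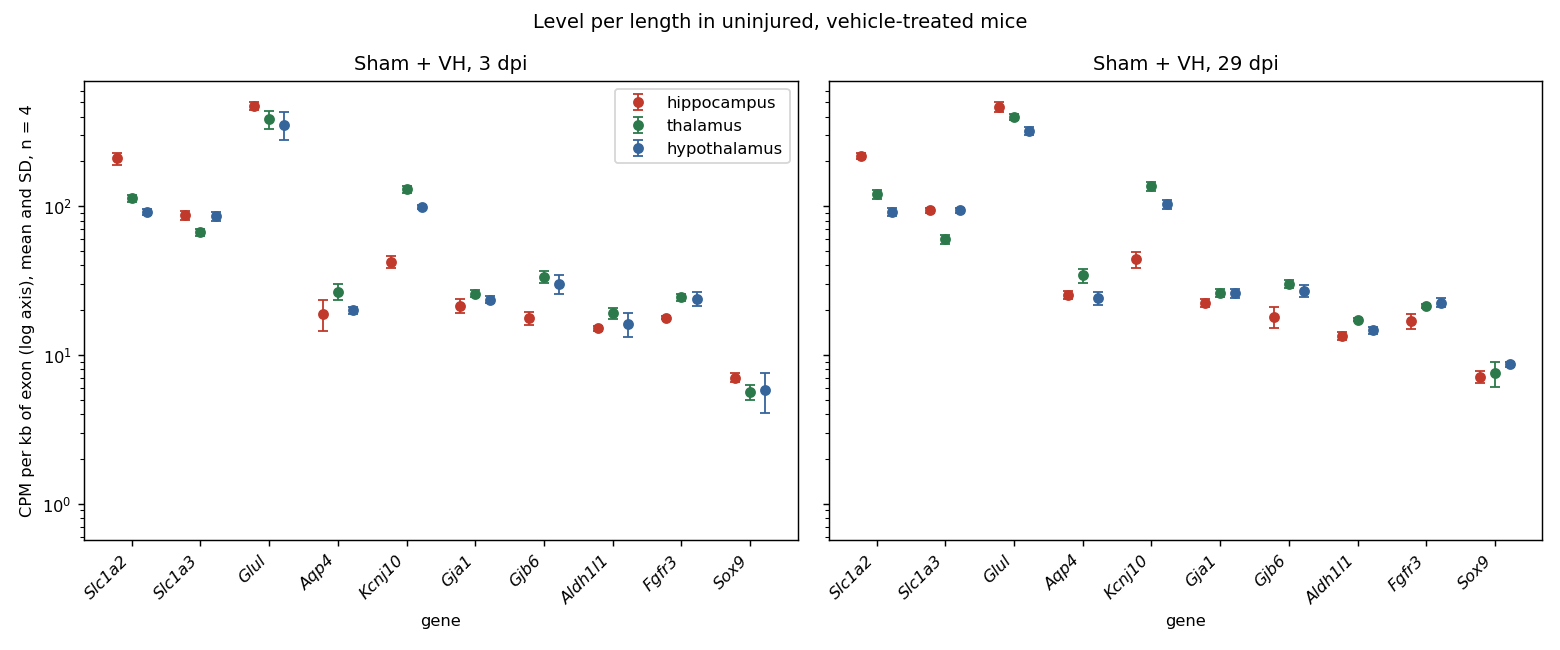
Level per length (CPM per kilobase of exon, log axis) of the 10 genes in Sham + VH mice by region at 3 and 29 dpi, as the mean and SD of 4 libraries. Slc1a2 is highest in hippocampus, and Kcnj10 and Gjb6 are lowest there, at both time points.

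Slc1a2 was highest in hippocampus. At 3 dpi it was at 2667, 2628, 3144 and 2569.7 CPM there, at 1523, 1464, 1549 and 1392 CPM in thalamus and at 1279, 1224, 1192 and 1141 CPM in hypothalamus, with no overlap between the hippocampus and the other two. The log2 difference was 0.89 ± 0.08 (SE, adjusted p = 5.1e-07) from thalamus and 1.18 ± 0.08 (SE, adjusted p = 3.1e-08) from hypothalamus, and 0.86 ± 0.07 and 1.24 ± 0.07 at 29 dpi. Its partner Slc1a3 was instead lowest in thalamus, at 543, 556, 569 and 619 CPM, and its hippocampus minus hypothalamus difference had an interval of -0.13 to 0.16 on the log2 scale. Glul was higher in hippocampus than in hypothalamus, by 0.42 ± 0.13 (SE, adjusted p = 0.017) at 3 dpi and 0.52 ± 0.07 (SE, adjusted p = 2.4e-05) at 29 dpi. Without hypothalamic replicate 3 the 3 dpi value was 0.35 (adjusted p = 0.057, edgeR) and was not called.

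Kcnj10 showed the widest regional difference of the 10. It was at 707, 753, 669.8 and 680.0 CPM in thalamus, 525, 531, 521 and 560.5 CPM in hypothalamus and 200.5, 236, 251 and 228 CPM in hippocampus at 3 dpi, and the 3 regions did not overlap. The hippocampus differed from thalamus by -1.62 ± 0.07 (SE, adjusted p = 1.1e-09) and from hypothalamus by -1.23 ± 0.07 (SE, adjusted p = 1.1e-08), and at 29 dpi by -1.64 ± 0.08 and -1.26 ± 0.08. Aqp4 was higher in thalamus, at 138, 187, 176 and 163 CPM, than in hippocampus, by a hippocampus minus thalamus difference of -0.49 ± 0.14 (SE, adjusted p = 0.0097) at 3 dpi and -0.43 ± 0.09 (SE, adjusted p = 7.6e-04) at 29 dpi. Between thalamus and hypothalamus the difference of Aqp4 at 3 dpi, 0.41 ± 0.14 (SE, adjusted p = 0.032), was lost without thalamic replicate 2 or 3 or hypothalamic replicate 1 or 3 (adjusted p up to 0.091) and in a fit of all 48 libraries of that time point (adjusted p = 0.057, edgeR).

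Of the connexins, Gjb6 was lower in hippocampus (42.5 to 53.6 CPM) than in thalamus (80.6 to 102 CPM) and hypothalamus (67.8 to 92.2 CPM), by -0.93 ± 0.10 (SE, adjusted p = 6.8e-06) and -0.78 ± 0.10 (SE, adjusted p = 2.8e-05) at 3 dpi. Gja1 differed by less, with -0.27 ± 0.07 (SE, adjusted p = 0.007) between hippocampus and thalamus, under the fold limit, although it was called, at -0.35, without hippocampal replicate 3. Fgfr3 was lower in hippocampus at 124 to 131 CPM than in thalamus at 163 to 182 CPM, a difference of -0.45 ± 0.07 (SE, adjusted p = 1.0e-04). Aldh1l1 was lower in hippocampus than in thalamus at both time points, by -0.33 ± 0.10 (SE, adjusted p = 0.016) and -0.37 ± 0.06 (SE, adjusted p = 7.7e-05). The 3 dpi value was under the fold limit, at -0.31 to -0.30, without hippocampal replicate 1 or thalamic replicate 1 or 3. Sox9 was not called between any pair of regions at 3 dpi or 29 dpi with all libraries. Its hippocampus minus hypothalamus difference at 29 dpi was -0.31 ± 0.11 (SE, adjusted p = 0.034), and it was called, at -0.37 (adjusted p = 0.020, edgeR), without hippocampal replicate 2, a library of 8159341 counts.

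Per length, Glul was highest and Sox9 lowest of the 10 in each region of Sham + VH mice at both time points. In Sham + VH hippocampus at 3 dpi Glul was highest at 473 ± 26.9 CPM per kilobase (SD, n = 4), then Slc1a2 at 209.6 ± 20.1, Slc1a3 at 86.9 ± 6.61 and Kcnj10 at 42.3 ± 3.91. Gja1 (21.4 ± 2.22), Aqp4 (19.0 ± 4.46), Fgfr3 (17.8 ± 0.4), Gjb6 (17.6 ± 1.74) and Aldh1l1 (15.1 ± 0.498) came next, and the SD of Aqp4 took in the means of the other 4. Sox9 was at 7.05 ± 0.468 CPM per kilobase. In thalamus Kcnj10, at 129.9 ± 6.89 CPM per kilobase, stood above Slc1a2 at 113 ± 5.30. The exon length used is that of all annotated exons of a gene, so an isoform with a short end would make a level per length too low.

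The lists of genes around these 10 moved unevenly in the hippocampus at 3 dpi. All changes that follow are log2 fold changes over both drug arms with their SE, where 13.3% of genes were called higher and 2.47% lower. Of 8 potassium, bicarbonate and sodium pump partners 4 rose (median 0.34), with Fxyd1, a regulator of the sodium pump, at 1.37 ± 0.10 and the pump subunit Atp1b2 at 0.77 ± 0.06. Of 10 genes of the water channel anchoring complex and endfeet 2 rose (median 0.10), Mlc1 at 0.72 ± 0.04 and its partner Hepacam at 0.65 ± 0.06. Of 9 connexins and junction partners 3 rose (median 0.25), among them Gjb2 at 0.79 ± 0.17 and Gjb1 at 0.62 ± 0.14.

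Of 16 glutamate and glutamine cycle partners 2 rose and 1 fell, close to the shares of all genes, with a median of -0.11. Slc38a3, an astrocytic glutamine exporter, rose by 0.66 ± 0.10 and Slc1a4, a neutral amino acid exchanger, by 0.51 ± 0.07, and the vesicular transporter gene Slc17a8 changed by -0.50 ± 0.15. None of the 6 genes of GABA uptake and breakdown was called (median -0.14). Of 14 FGF ligands, receptors and feedback genes 2 rose (median -0.11), Fgfr4 (0.044 to 0.177 CPM in Sham + VH libraries, a few counts each) by 2.80 ± 0.39 and Fgfrl1 by 0.90 ± 0.10. Of 13 astrocyte transcription factors 4 rose and 1 fell (median 0.10), with Id3 at 1.16 ± 0.06, Sox6 at 0.58 ± 0.07 and Hes5, a Notch target, at -0.74 ± 0.12.

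Of 20 other quiescent astrocyte genes 9 rose and none fell, with a median of 0.30, below the 0.55 of the 10 genes. Gpr37l1, an astrocyte receptor, was at 0.69 ± 0.05, Ppp1r3c, a glycogen-targeting subunit, at 0.68 ± 0.08 and Cst3, the secreted cystatin C, at 0.60 ± 0.05. All 18 reactive astrocyte genes rose, with a median of 2.63, and Tgm1, Timp1 and Lcn2 were at 9.49 ± 0.59, 6.39 ± 0.47 and 5.56 ± 0.42. Tgm1 was at 0.042 to 0.194 CPM in Sham + VH and 18.9 to 91.1 CPM in TBI + VH libraries, so the size of its fold rests on a few sham counts, as does that of Timp1 (0.044 to 0.381 CPM in Sham + VH). In the thalamus at 3 dpi 3 of 16 tested reactive genes rose, Gfap by 1.56 ± 0.22, Serpina3n by 1.48 ± 0.28 and Aspg by 0.92 ± 0.17, and 0 of the 20 other quiescent astrocyte genes, against 0.907% of all genes.

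**Figure D5:**
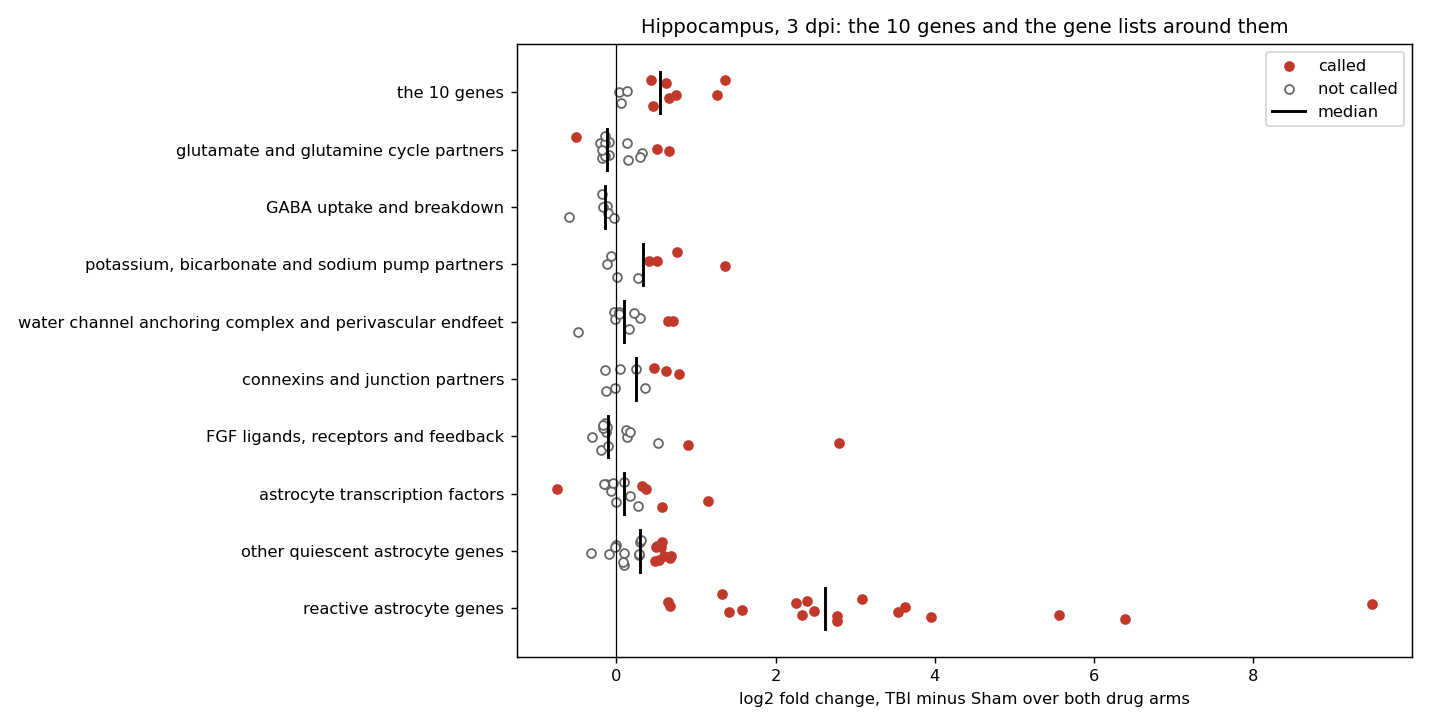
Log2 fold change for injury over both drug arms in the hippocampus at 3 dpi of the 10 genes and of each related gene list, with a point per gene (red where called) and a bar at the list's median. The 10 genes have a median of 0.55, other quiescent astrocyte genes 0.30 and reactive astrocyte genes 2.63.

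The genes whose levels followed each of the 10 most closely over the 96 libraries are given as a description, from log2 CPM with the mean of each region and time point removed, among 14176 genes. The libraries share regions, time points and groups, and the injured hippocampi at 3 dpi are among them. Aldh1l1 was closest to Lgmn (r = 0.94), Grn (0.93) and Arpc1b (0.93). Aqp4 was closest to Gfap (0.91), Cd9 (0.87) and Gpnmb (0.87), and Gja1 to Fcgr3 (0.89), Prdx6 (0.88) and Gfap (0.88). Kcnj10 was closest to Atp1b2 (0.83), Jam2 (0.83) and Mtmr11 (0.82), and Gjb6 to Sdc4 (0.80), Sepp1 (0.80) and Fam107a (0.76). Sox9 was closest to Zfp36l1 (0.84), Nes (0.73) and 1700084C01Rik (0.73), Slc1a3 to Gpld1 (0.80), Itih3 (0.78) and Il13ra1 (0.74), and Glul to Map1lc3b (0.78), Csrp1 (0.75) and Cpm (0.74). The closest genes had lower values for Slc1a2, with Gpm6b (0.66), Luzp2 (0.63) and Acsl6 (0.62), and for Fgfr3, with Serpine2 (0.66), Gareml (0.64) and Aldoc (0.64).

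Among the 10 themselves the closest pair over 96 libraries was Aqp4 and Gja1 (r = 0.86), which kept r = 0.68 over the 64 thalamic and hypothalamic libraries. Kcnj10 and Aldh1l1 were at 0.78 over all and 0.29 outside the hippocampus. The reverse was seen for Glul and Aldh1l1, with 0.25 over all libraries and 0.69 outside the hippocampus, and for Glul and Fgfr3, with 0.45 and 0.67. Sox9 and Glul were at -0.38 over all and -0.52 outside the hippocampus.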

How the data were processed

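The deposited tables hold raw read counts per gene for 96 libraries, made by the authors from total RNA with a stranded mRNA kit; reads were aligned to mm10 with MapSplice and counted with HTSeq 0.9.1. The annotation and the strand setting of the counting are not given in the sources used here, and the columns left unused numbered 0. Samples were grouped by the labels for region, time point, injury and drug. Counts were tested with edgeR 4.0.16 in R 4.3.3 (TMM factors, filterByExpr, quasi-likelihood F test, Benjamini-Hochberg adjustment over all genes), and a call needed an adjusted p under 0.05 together with a log2 fold change beyond 0.32 in either direction, which are the study's limits. The 45 comparisons were injury, candesartan and their interaction in each of the 6 sets of 16 libraries, regions in Sham + VH mice, and the injury difference between regions and between time points. SE values were taken from the fold change and its F statistic, and 95% intervals by the normal approximation. Library totals, from 6663629 to 38589791, set the counting precision, and the scripts were tested on simulated data. The chi-square per degree of freedom between libraries of a group was 2.64 to 48.1 over 144 pairs, so none was a repeat deposit.

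The 10 genes and all gene lists were chosen with earlier results of these data known. The genes named beside the 10 were taken from the 3 called genes of each list with the largest absolute log2 fold change, the most abundant genes of the cell type lists, and the 3 genes with the highest correlation to each of the 10; Gfap at 29 dpi was named after its values were seen. Not every gene of this rule is reported here. Positions and exon lengths come from GENCODE vM21 (GRCm38, the same build as mm10), and start-site windows from RefSeq (GRCm38.p6). Alternatives were DESeq2 1.42.0, DESeq2-type (RLE) factors, no filter on low counts, the adjusted p alone, a replicate block, a fit of only the groups compared, the mean log2 CPM of choroid plexus genes as a covariate, removal of libraries under 10000000 counts, all 48 libraries of a time point for the regional comparisons, and each library left out.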

Additional observations from a re-analysis of the deposited data

Results flagged for a closer look

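In 13 of 240 combinations of gene and group, each of 4 libraries, 1 library stood apart from the other 3 by a Dixon test at the 95% level. Chance gives about 1 in 20, but these combinations share libraries and are not independent. In the hippocampus at 3 dpi replicate 3 of Sham + VH was high for Slc1a2 (3144 CPM, the others up to 2667) and Gja1 (253 CPM, the others up to 211), and replicate 2 of TBI + VH was low for Aqp4 (223 CPM, the others from 333). In the hippocampus at 29 dpi replicate 3 of TBI + CD was high for Glul (1825 CPM), replicate 2 of Sham + CD high for Kcnj10 (283 CPM) and replicate 3 of Sham + CD low for Fgfr3 (119.6 CPM). In thalamus replicate 4 of TBI + CD at 29 dpi was high for Aqp4 (451.6 CPM, the others 197 to 236) and replicate 3 of TBI + VH at 3 dpi low for Fgfr3 (158 CPM). In hypothalamus at 3 dpi replicate 2 of Sham + CD was low for Slc1a2 (1167 CPM) and replicate 3 of TBI + VH low for Gjb6 (78.5 CPM). In hypothalamus at 29 dpi replicate 3 of Sham + CD was high for Slc1a3 (945 CPM), replicate 4 of TBI + CD high for Glul (1259 CPM) and replicate 4 of TBI + VH low for Gja1 (248 CPM).

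The injury difference over both drug arms itself differed between regions or between the 3 and 29 dpi cohorts. The hippocampal change at 3 dpi minus that in thalamus was called for Aqp4 (1.04), Kcnj10 (0.48), Gja1 (0.47), Gjb6 (0.41), Aldh1l1 (0.98) and Sox9 (0.43), as log2 differences. Against hypothalamus it was called for Slc1a3 (0.33), Aqp4 (1.10), Kcnj10 (0.55), Gja1 (0.62), Gjb6 (0.52) and Aldh1l1 (1.13). Within the hippocampus the change at 3 dpi minus that at 29 dpi was called for Aqp4 (0.96), Kcnj10 (0.62), Gja1 (0.53), Gjb6 (0.36), Aldh1l1 (1.16) and Sox9 (0.42).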

How the results depend on the processing

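No value of the 10 genes that was called changed sign under any alternative run, and the count of 7 genes called higher in the hippocampus at 3 dpi over both drug arms held with each of the 6 alternatives and with each of the 16 libraries left out. In vehicle mice that count was 6 to 7 and in candesartan mice 7 with single libraries left out. Counts changed by over 1.5 times in these cases. They are counts of the 10 genes alone, not set against the share of all genes called under the same setting. With the choroid plexus score as a covariate 1 gene was called in the thalamus at 3 dpi, both in candesartan mice and over both arms, instead of 0. With the adjusted p alone 2 were called in thalamus at 3 dpi over both arms instead of 0, 3 in hippocampus at 29 dpi over both arms instead of 1, and 8 between hippocampus and hypothalamus at 29 dpi instead of 5. DESeq2 called 1 gene in the hippocampus at 29 dpi in each arm, and a fit of only the groups compared called 2 in the candesartan arm, instead of 0. Leaving out libraries gave 0 to 1 there in each arm: 1 gene was called in vehicle mice without replicate 2 of TBI + VH and in candesartan mice without replicate 3 of TBI + VH. The causes were not tested. For all genes, the interaction of injury and candesartan in the hippocampus at 3 dpi had 0 calls by edgeR with the settings given above, 102 higher and 16 lower by edgeR without the filter on low counts, 71 and 35 with the replicate block, and 241 and 81 by DESeq2; none of the 10 was among them. The groups share replicate numbers, and what the numbers stand for is not given. Same-numbered libraries did not deviate together in all pairs of any set (median correlation 0.0070 to 0.13 by set), and the numbers were not taken as pairing. In thalamus at 3 dpi the median was 0.13, with 15 of 24 pairs above 0.1, against -0.026 for other pairs. In hypothalamus at 29 dpi it was 0.092 against -0.049. A batch shared by number was not tested beyond the replicate block. With the replicate block 7 of the 10 genes were called in the hippocampus at 3 dpi in each arm and 1 at 29 dpi over both arms, as without it. Between 4 libraries a group and the totals given, values below the fold limit of 0.32 are reported but not called.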
